A study of Mus musculus with 9 samples.

Results

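The genes of iron storage, import and export followed here, in 9 RNA libraries of mouse retinal cells, are the ferritin chains Fth1 and Ftl1, the importers Tfrc, Slc11a1 and Slc11a2, the exporter Slc40a1, the heme oxygenase Hmox1 and the iron regulatory proteins Aco1 and Ireb2. Rows were matched to the members by gene symbol, and all 9 were found, among 16367 genes in the table of sorted cells and 17035 in the table of cultures. The list of members was chosen with earlier results of these data known. All 9 also passed the filter on low values, a mean of at least 10 normalised reads over the sorted libraries.

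Cells keep iron bound to ferritin, a shell of heavy chains, which oxidise iron, and light chains, which help to lay it down as a mineral core. Iron enters as transferrin through the receptor Tfrc and crosses membranes through Slc11a2 (DMT1) or, in phagosomes, Slc11a1 (NRAMP1). It leaves through Slc40a1 (ferroportin), and Hmox1 frees it from heme. The proteins of Aco1 (IRP1) and Ireb2 (IRP2) bind RNA hairpins called iron-responsive elements when iron is low. A bound hairpin in a 5′ UTR blocks translation, as in ferritin and ferroportin messages, while hairpins in the 3′ UTR of Tfrc protect its message from decay. Müller glia, which span the retina, are known to take part in its iron handling, and macrophages, which recycle iron from engulfed cells, are rich in ferritin and ferroportin.

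The study addressed Müller glia in ocular hypertension (OHT), a raised pressure in the eye. In the OHT group (3 libraries), 1.2 µL of silicone oil had been injected into the anterior chamber of each eye. Sham animals (3 libraries) had a corneal incision and no oil. Both groups are labelled WT, and the strain and age of these mice and the time after injection are not in the labels. Each of these 6 libraries pooled the neural retinas (4 per pool), which were dissociated with papain, cleared of dead cells and sorted on magnetic beads with an antibody against GLAST (ACSA-1), a transporter that astrocytes carry too. The other 3 libraries are untreated primary cultures labelled as Müller glia, grown from papain-dissociated retinas of C57BL/6J pups (postnatal days 8 to 10) on gelatin in serum-containing medium and passaged. Values are normalised reads, that is a read count divided by 1 factor per library, or ppm, reads per 1e6 reads of the same library.

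The hairpins are shown because the regulatory proteins act through them, and 4 of the 9 genes hold the iron-responsive element searched for here. The pattern was a C, 5 bases, the loop CAGTGN, and 5 bases able to pair with the first 5, with G–T pairs allowed, read on the transcript strand only. In 30-base windows from GENCODE M21 transcripts (build GRCm38), written 5′ to 3′ with the loop in capitals, the matches were these.
Fth1 5′ UTR (chr19:9982731-9982760, plus strand): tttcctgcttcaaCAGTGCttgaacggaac
Ftl1 5′ UTR (chr7:45459779-45459808, minus strand): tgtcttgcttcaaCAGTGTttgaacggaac
Slc40a1 5′ UTR (chr1:45925465-45925494, minus strand): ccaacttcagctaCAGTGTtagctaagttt
Tfrc 3′ UTR, first (chr16:32631218-32631247, plus strand): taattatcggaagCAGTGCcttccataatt
Tfrc 3′ UTR, next (chr16:32631597-32631626, plus strand): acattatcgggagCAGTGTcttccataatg
Tfrc 3′ UTR, next (chr16:32631662-32631691, plus strand): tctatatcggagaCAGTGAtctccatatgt
Tfrc 3′ UTR, last (chr16:32631709-32631738, plus strand): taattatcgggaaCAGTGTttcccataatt
Each of the 7 matches lies within 1 exon. The storage and export messages carry 1 match each ahead of the coding sequence, and the import receptor carries 4 behind it. The pattern was found in the 5′ UTR of 22 of 21862 protein-coding genes (0.101%), in the 3′ UTR of 109 (0.499%) and in the coding sequence of 132 (0.604%). Hmox1, Slc11a1, Slc11a2, Aco1 and Ireb2 had no match in the transcript scanned, which says only that this pattern is not in that transcript. Other transcripts of these genes and hairpins of another shape were not searched, so an element there would be missed. A match is a description of the letters, and nothing here measured binding.

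The libraries held 37.8 to 44.5 M (1e6) reads in sham, 47.1 to 53.6 M in OHT and 66.3 to 76.7 M in the cultures. Mitochondrially encoded genes took 12.2 to 18.1% of sham, 1.98 to 5.56% of OHT and 0.646 to 0.890% of culture reads, so a share of all reads is not the same measure in the 3 groups. The labelled cell type was checked against markers. Microglia and macrophage markers (12 genes, none at 0) summed to 21009 to 33921 ppm in sham, 31001 to 33700 in OHT and 99.7 to 155 in the cultures. In normalised reads, 6 of the 12 were higher in OHT without overlap, beside 9.26% of all genes. The Müller glia list (10 genes) summed to 14648 to 68701 ppm in sham and 19684 to 100629 in OHT, most of it Apoe, a gene microglia also express, while Rlbp1, which encodes a retinal-binding protein of Müller glia, was at 642 to 2090 and 389 to 880 ppm. In the cultures the Müller list summed to 246 to 454 ppm, most of it Dkk3 (162 to 269), with Rlbp1 at 1.60 to 2.84. The pericyte and fibroblast list summed to 5824 to 8246 ppm there, most of it the collagen gene Col1a1 (4121 to 6521). In that list Col1a2 was at 1246 to 1503 ppm, Pdgfrb at 198 to 241, Rgs5 at 2.58 to 3.44 and Kcnj8 at 0 to 0.0793. Rod markers (8 genes) summed to 2400 to 23022 ppm in sham and 818 to 2983 in OHT. Astrocyte markers (4 genes) summed to 403 to 2474 ppm in sham and 264 to 587 in OHT. The sums of 2 lists were lower in OHT without overlap: endothelium (5 genes), at 214 to 447 ppm in sham and 107 to 199 in OHT, and pericytes and fibroblasts (5 genes), at 116 to 242 and 8.53 to 46.4. In normalised reads, 0 of 5 and 2 of 5 of their single genes were lower without overlap, beside 9.18% of all genes. In ppm Cldn5 was lower without overlap (11.8 to 47.8 in sham, 2.61 to 9.18 in OHT). Pdgfrb then overlapped, at 5.82 to 13.2 ppm in sham and 1.05 to 5.83 in OHT. The microglia and rod lists entered fits as covariates, whose values for all members are given below, and the part of the other cells was not tested.

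Ferritin transcripts were the most abundant members by far, and their levels were higher in every OHT library than in every sham library. Ftl1, the light chain, had 205967, 108875 and 240391 normalised reads in sham replicates 1 to 3 and 699758, 340151 and 554748 in OHT replicates 1 to 3. The groups did not overlap, and OHT replicate 2 was the nearest to sham. The means were 185078 ± 68201 and 531552 ± 180922 (SD, n = 3 each), a 2.87-fold ratio. On the log2 scale the difference was 1.54 (SE 0.50, 95% interval 0.44 to 2.64; limma adjusted p = 0.339 by Benjamini-Hochberg over 14403 genes, and 0.0102 before adjustment).

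Fth1, the heavy chain, had 219332, 124177 and 233575 normalised reads in sham and 631176, 354517 and 276876 in OHT. Again no OHT library fell within the sham range, but OHT replicate 3 was close to its upper end. The ratio of means was 2.19, and the log2 difference was 1.09 (SE 0.49, 95% interval 0.02 to 2.17; limma adjusted p = 0.422, and 0.0469 before adjustment). With the mean of the microglia and macrophage list as a covariate, the Fth1 difference was 0.43 and that of Ftl1 was 1.17. In these bulk samples more cells of a type and more RNA per cell cannot be told apart.

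**Figure D1:**
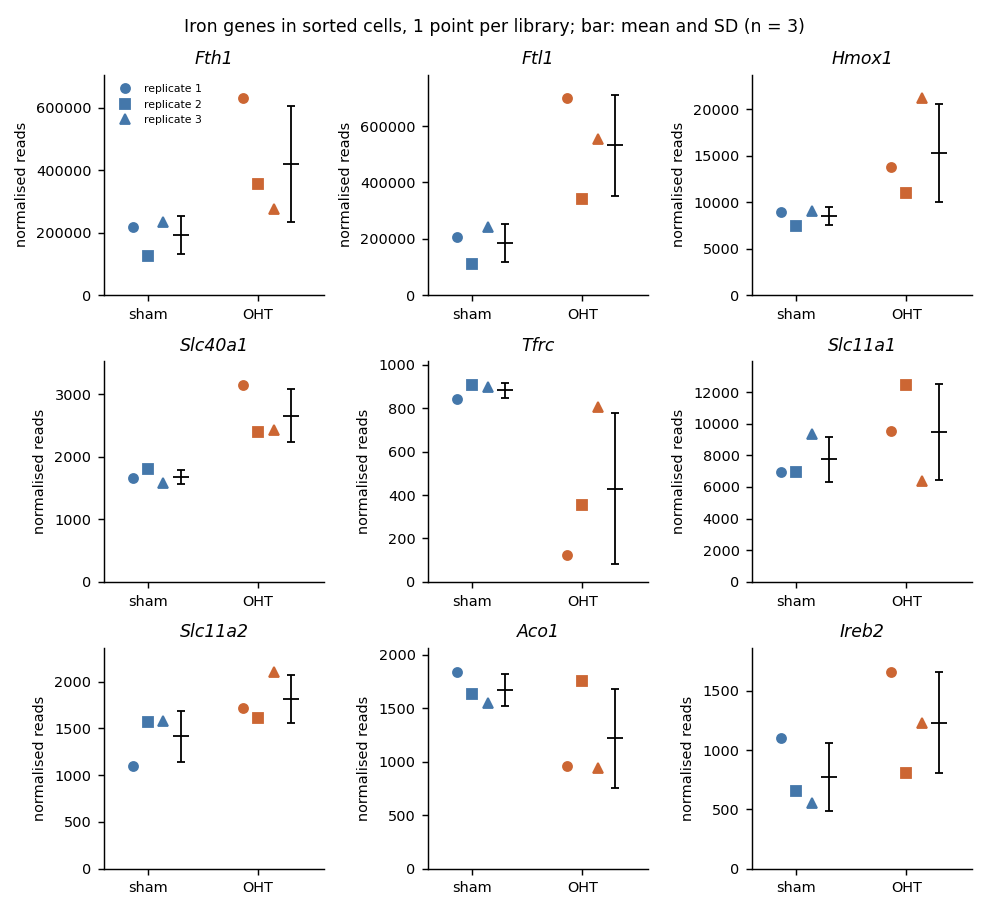
Normalised reads (y axis, from 0) of each member in the 3 sham and 3 OHT libraries, with 1 point per library, marker shape for the replicate number, and the mean with its SD (n = 3) beside each group. Fth1, Ftl1, Hmox1, Slc40a1 and Slc11a2 were above the sham range in all OHT libraries, Tfrc was below it, and Slc11a1, Aco1 and Ireb2 overlapped.

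As a share of all reads, the ferritin chains together made up 1.09, 0.592 and 1.11% of the sham libraries, against 1.93% ± 0.323 (SD, n = 3) of the OHT libraries, none of which was below 1.57%. In the cultures the sum was 1.06, 1.10 and 1.23%, with the light chain making up most of it. Ftl1 ranked 10th, 14th and 5th by reads in OHT and 17th, 32nd and 18th in sham, and it ranked 3rd, 2nd and 2nd in the cultures. Fth1 ranked 12th, 13th and 12th in OHT and 15th, 28th and 20th in sham, and it stood at 98th, 144th and 81st in the cultures.

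The balance of the chains was measured within each library, where the scaling factor drops out. Fth1 reads per Ftl1 read were 1.06, 1.14 and 0.972 in sham, and 0.902, 1.04 and 0.499 in OHT. Sham libraries therefore held the chains at near parity, and OHT replicate 3 alone had about 1 Fth1 read for each pair of Ftl1 reads. The cultures were at 0.124, 0.0812 and 0.108, far below all 6 sorted libraries. Per kb of transcript, Ftl1 exceeded Fth1 by 7.77, 11.8 and 8.87 times in the cultures. The row of the ferritin pseudogene Ftl1-ps2 held at most 0.0492% of the Ftl1 level in any library. The chain levels are uncertain to the extent that reads were shared with ferritin pseudogenes, whose counting no source used here describes.

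**Figure D2:**
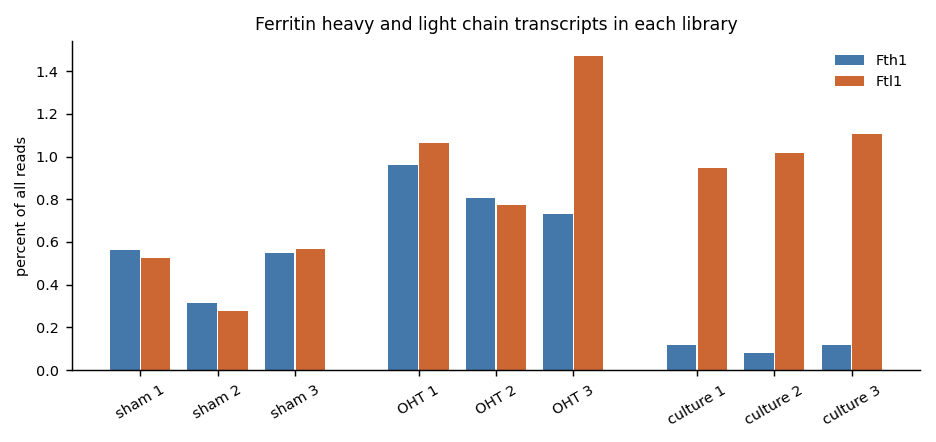
Percent of all reads (y axis, from 0) that fell on Fth1 and Ftl1 in each of the 9 libraries. The bars of a pair are near equal in the sham libraries and in OHT replicates 1 and 2, while Fth1 is at 0.0812 to 0.124 of Ftl1 in the cultures.

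Among the importers, only Tfrc differed between the groups without overlap in the direction of lower values. Tfrc, the transferrin receptor, had 842, 907 and 897 normalised reads in sham, which lay close together, and 123, 355 and 807 in OHT, which did not. The groups are separated by OHT replicate 3 at 807 against sham replicate 1 at 842, a narrow gap. The sham mean was 2.06 times the OHT mean, and the log2 difference was -1.42 (SE 0.67, 95% interval -2.89 to 0.04; limma adjusted p = 0.438, and 0.0562 before adjustment). Without OHT replicate 1 the difference was -0.72, and with the microglia and macrophage covariate it was -0.29. In ppm the groups overlapped, at 21.5, 23.0 and 21.1 in sham and 1.87, 8.04 and 21.4 in OHT.

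Slc11a1, the divalent metal transporter of phagocyte lysosomes, had 6944, 6929 and 9370 normalised reads in sham and 9538, 12445 and 6405 in OHT. The groups overlapped, and the log2 difference was 0.25 (SE 0.34, 95% interval -0.50 to 1.01; limma adjusted p = 0.763). Its sign turned with the scaling, to -0.11 after quantile normalization and -0.17 against a total without mitochondrially encoded genes. Slc11a2, which moves ferrous iron out of endosomes, had 1097, 1571 and 1575 normalised reads in sham and 1716, 1615 and 2104 in OHT. These ranges were separate but adjacent, the log2 difference was 0.37 (SE 0.38, 95% interval -0.46 to 1.19; limma adjusted p = 0.689), and it was -0.05 against the total without mitochondrially encoded genes.

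Slc40a1, the known cellular exporter of iron, had 1666, 1801 and 1572 normalised reads in sham and 3145, 2395 and 2432 in OHT. All OHT libraries were above all sham libraries, also in ppm, where sham held 42.6, 45.8 and 36.9 and OHT held 47.8, 54.3 and 64.4. The ratio of means was 1.58 in normalised reads, and the log2 difference was 0.65 (SE 0.35, 95% interval -0.10 to 1.41; limma adjusted p = 0.477, and 0.0847 before adjustment). Against the total without mitochondrially encoded genes it was 0.23, and the groups then overlapped. Set against Tfrc within a library, Slc40a1 reads per Tfrc read were 1.98, 1.99 and 1.75 in sham and 25.6, 6.75 and 3.01 in OHT. The export message thus stood higher against the import receptor in each OHT library than in each sham library, by amounts that differed widely among the OHT libraries. In the cultures the ratio was the other way round, at 0.0308, 0.0600 and 0.0827.

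Hmox1, the inducible enzyme that opens the heme ring and releases its iron, had 8972, 7377 and 9077 normalised reads in sham and 13814, 10957 and 21190 in OHT. The OHT libraries were all above the sham range, with replicate 3 highest. The ratio of means was 1.81, and the log2 difference was 0.81 (SE 0.34, 95% interval 0.07 to 1.55; limma adjusted p = 0.400, and 0.0354 before adjustment). It was 0.45 after quantile normalization and 0.38 against the total without mitochondrially encoded genes, and the groups overlapped on both scales. In ppm the overlap was of OHT replicate 1, at 210, with a sham range of 188 to 230. Erythroid markers, mostly hemoglobin genes, summed to 1.11, 31.3 and 602 ppm in sham and 231, 9.09 and 100 ppm in OHT, a wide spread within both groups. Its part in the Hmox1 values was not tested.

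The iron regulatory proteins overlapped between the groups. Aco1, which is a cytosolic aconitase when iron is plentiful, had 1839, 1634 and 1545 normalised reads in sham and 960, 1753 and 938 in OHT. Its log2 difference was -0.52 (SE 0.41, 95% interval -1.41 to 0.37; limma adjusted p = 0.602), -0.81 without OHT replicate 2, and 0.01 after a correction for GC content and transcript length. Ireb2, which is degraded when iron is plentiful, had 1102, 660 and 558 in sham and 1659, 806 and 1228 in OHT. Its log2 difference was 0.67 (SE 0.48, 95% interval -0.37 to 1.72; limma adjusted p = 0.569), 0.43 without OHT replicate 1, and 0.06 with the microglia and macrophage covariate. Ireb2 reads per Aco1 read were 0.599, 0.403 and 0.361 in sham and 1.73, 0.460 and 1.31 in OHT. Per kb of transcript, the ratio was 0.398, 0.268 and 0.240 in sham and 1.15, 0.305 and 0.870 in OHT. By reads, OHT replicates 1 and 3 were thus above 1, and per kb OHT replicate 1 alone was.

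Over the members, 0 of 9 passed an adjusted p of 0.05 in limma, as did 0 of all 14403 genes tested (0%). At an unadjusted p of 0.05, 3 of 9 passed, Ftl1, Fth1 and Hmox1, all higher in OHT, beside 5.37% of all genes higher and 6.30% lower (11.7% in either direction). Groups were free of overlap for 5 members higher and 1 lower, beside 9.26% and 9.18% of all genes. In ppm this held for 3 members higher, Fth1, Ftl1 and Slc40a1, and none lower, beside 5.44% and 11.4%. The median log2 difference was 0.65 over the members and -0.12 over all genes.

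Other tools were run on the read counts recovered from the deposited values. DESeq2 called 1 member, Ftl1, with a log2 difference of 1.52 and an adjusted p of 0.0397, beside 0.389% of genes called higher and 1.80% called in either direction. Over the 21 alternatives to the limma fit, the adjusted p of Ftl1 ran from 0.0397 to 0.999. The edgeR quasi-likelihood test called 0 members, as of all genes (0%), with 3 higher at an unadjusted p of 0.05, beside 5.27% of all genes higher and 10.9% in either direction. An exact two-sided permutation test of each member cannot go below p = 0.1 with 3 against 3, and the 6 members without overlap reached that value. Nothing in the labels says that the pools came from separate animals or litters in each replicate, so these p-values measure the spread between samples, which may be technical.

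The scaling of the libraries bears on every difference. The median of all genes stood at -0.12 with the deposited factors, -0.16 with TMM factors, 0.01 after quantile normalization, -0.53 against the total without mitochondrially encoded genes and 0.17 after the GC and length correction. Genes at an unadjusted p of 0.05 numbered 773 higher and 907 lower with the deposited factors, and 271 higher and 1564 lower against the total without mitochondrially encoded genes. Relative to the median of all genes, the Ftl1 difference was 1.66 with the deposited factors, 1.06 after quantile normalization and 1.65 against that total, and the Fth1 difference was 1.22, 0.64 and 1.21. The Tfrc difference was -1.30, -1.08 and -1.31 on the same scales. Across 13849 genes, which are not independent replicates, the OHT minus sham difference was related to transcript length (Spearman rho -0.21) and to GC content (rho -0.15), and after a correction for both the differences were 1.50 for Ftl1 and 0.78 for Fth1. Relative to the median of all genes after that correction, they were 1.33 and 0.61, against 1.66 and 1.22 with the deposited factors.

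**Figure D3:**
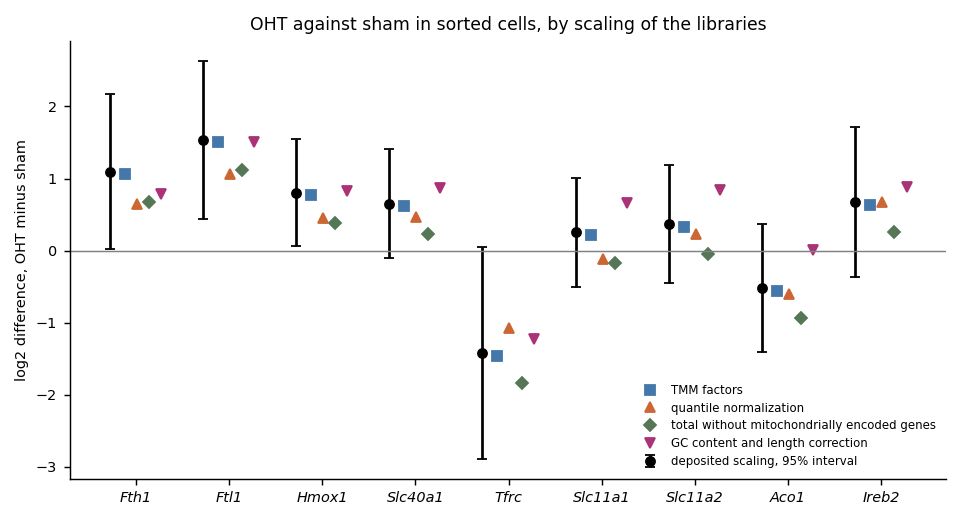
Log2 difference, OHT minus sham (y axis), of each member with the deposited scaling and its 95% interval (black) and under 4 other scalings (coloured points). Fth1, Ftl1, Hmox1, Slc40a1 and Ireb2 stay above 0 and Tfrc below 0 under all 5, while Slc11a1, Slc11a2 and Aco1 cross 0.

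The members varied together to different degrees over the 6 sorted libraries. As a description over n = 6 libraries that share the group difference and their depth, Pearson's r of log2 values was 0.90 between Fth1 and Ftl1, 0.87 between Ftl1 and Hmox1, 0.82 between Ftl1 and Slc40a1, and -0.88 between Fth1 and Tfrc. Aco1 and Ireb2 had an r of -0.67, and Slc11a1 and Slc11a2 had an r of 0.04. Among the 11528 genes that averaged 100 or more, the patterns most like Ftl1 were those of Glipr1, Hacd4 and Npc2 (r = 0.997, 0.997 and 0.996). Those most like Fth1 were Akr1b3, Snhg6 and Nans (r = 0.995, 0.995 and 0.994), and those most like Hmox1 were Borcs7, Atp6v1d and the row named Mir692-2 (r = 0.996, 0.992 and 0.989). For Tfrc they were Pram1, Polr3b and Arhgap32 (r = 0.997, 0.993 and 0.993), and for Slc40a1 Immt, Rhno1 and Usp40 (r = 0.990, 0.989 and 0.987). For Slc11a1 they were Sesn2, Galns and Abcc3 (r = 0.983, 0.982 and 0.981), and for Slc11a2 Tm2d2, Mpdu1 and Alad (r = 0.985, 0.979 and 0.968). Aco1 was most like Dvl2, Brf1 and Tmem120b (r = 0.999, 0.993 and 0.992), and Ireb2 most like Rbm39, Senp5 and Lbx2 (r = 0.996, 0.995 and 0.994). With 6 points and so many genes, values this high are found for every member.

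The primary cultures held the same 9 genes in another order. Since their table was normalised apart and they differ from the sorted cells in age, sorting and growth, levels are set side by side in ppm with no test. Fth1 was at 1168, 823 and 1196 ppm in the cultures, below all 6 sorted libraries, where sham held 5613, 3157 and 5489 and OHT held 9593, 8036 and 7330. Ftl1 was at 9456, 10143 and 11060 ppm in the cultures, above sham (5271, 2768 and 5649) and within the OHT range (10635, 7710 and 14686).

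Tfrc was at 88.6, 72.4 and 67.1 ppm in the cultures, with a mean 3.48 times that of sham and 7.30 times that of OHT. Slc11a2 was at 64.8, 72.6 and 75.8 ppm, 2.03 times the sham mean. Both receptor and endosomal transporter of the transferrin route were thus above all 6 sorted libraries. Aco1 (73.7, 77.6 and 81.3 ppm) and Ireb2 (50.1, 49.4 and 39.5 ppm) were also above all sorted libraries, at 1.86 and 2.39 times the sham means.

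Slc11a1 was at 0.498, 0.344 and 0.899 ppm in the cultures, from 33, 26 and 69 recovered reads, and its sham mean was 330 times and its OHT mean 343 times the culture mean. The microglia and macrophage markers were lower in the cultures as well, as given above, and their part in the Slc11a1 gap was not tested. Slc40a1 was at 2.73, 4.35 and 5.55 ppm, and its sham mean was 9.93 times and its OHT mean 13.2 times that of the cultures. Hmox1, at 241, 191 and 177 ppm in the cultures, overlapped both sorted groups.

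Against all 6 sorted libraries, 4 members were higher in every culture (Tfrc, Slc11a2, Aco1 and Ireb2), beside 33.4% of genes, and 3 were lower (Fth1, Slc11a1 and Slc40a1), beside 18.2%. Against sham alone 5 were higher, with Ftl1 added (40.6% of genes), and the same 3 lower (31.1%). Against OHT alone 4 were higher (39.6%) and 3 lower (20.7%).

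**Figure D4:**
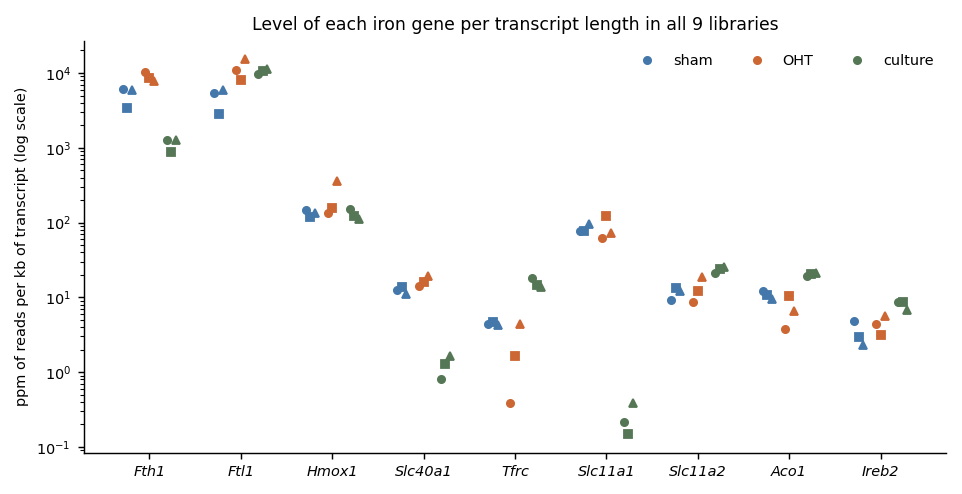
Level of each member in ppm of reads per kb of transcript (y axis, log scale) in all 9 libraries, coloured by group, with marker shape for the replicate. The ferritin chains lead in all groups, Slc11a1 and Slc40a1 are lowest in the cultures, and the OHT points of Tfrc spread from 0.382 to 4.37.

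Per kb of transcript, which allows genes to be compared, the order in sham was Fth1 (5116 ± 1490 ppm per kb, SD, n = 3), Ftl1 (4714 ± 1618), Hmox1 (134 ± 13.5), Slc11a1 (82.7 ± 10.8), Slc40a1 (12.4 ± 1.33), Slc11a2 (11.6 ± 2.04), Aco1 (10.9 ± 1.40), Tfrc (4.48 ± 0.211) and Ireb2 (3.36 ± 1.37). The ferritin chains overlapped each other, as did Slc40a1, Slc11a2 and Aco1 in turn and Tfrc with Ireb2. In OHT the order began with Ftl1 (11375 ± 3619) and Fth1 (8955 ± 1246), which overlapped, then Hmox1 (217 ± 123) and Slc11a1 (85.9 ± 31.6). Below them Slc40a1 (16.5 ± 2.48), Slc11a2 (13.0 ± 4.96), Aco1 (6.89 ± 3.30), Ireb2 (4.39 ± 1.23) and Tfrc (2.13 ± 2.04) each overlapped the next. In the cultures no neighbours overlapped: Ftl1 (10558 ± 831), Fth1 (1144 ± 224), Hmox1 (129 ± 21.7), Slc11a2 (23.5 ± 1.88), Aco1 (20.2 ± 0.994), Tfrc (15.6 ± 2.29), Ireb2 (8.03 ± 1.03), Slc40a1 (1.25 ± 0.420) and Slc11a1 (0.251 ± 0.124). Tfrc therefore stood at the foot of the order in OHT and above both Ireb2 and Slc40a1 in the cultures.

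The rest of the pathway was read from a list of 63 further iron genes in 7 roles, of which 58 were in the sorted table and 54 passed the filter. None passed an adjusted p of 0.05 in limma, and 6 passed an unadjusted p of 0.05, with 3 higher and 3 lower in OHT, beside 11.7% of all genes in either direction. Their median log2 difference was 0.00, beside -0.12 over all genes. Groups did not overlap for 6 genes higher and 4 lower, beside 9.26% and 9.18% of all genes. These 54 genes thus held shares near the background. DESeq2 called 3 of them at an adjusted p of 0.05, Epas1, Scara5 and Cybrd1, all lower in OHT, beside 1.41% of all genes called lower. The edgeR quasi-likelihood test called 0, with 7 of 54 at an unadjusted p of 0.05, beside 10.9% of all genes in either direction.

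Heme degradation was the role in which every listed gene was higher in OHT without overlap. Its 3 genes beside Hmox1 are Hmox2, the constitutive heme oxygenase, and the biliverdin reductases Blvra and Blvrb, which make bilirubin. Blvrb had 1668, 1476 and 2414 normalised reads in sham and 8123, 2628 and 4452 in OHT, with a log2 difference of 1.33 (SE 0.44; limma adjusted p = 0.343, and 0.0113 before adjustment). Blvra had 2165, 1884 and 2304 in sham and 5647, 3124 and 3958 in OHT, with a difference of 0.96 (SE 0.35; limma adjusted p = 0.364).

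Hmox2 had 4776, 3762 and 3818 normalised reads in sham and 6164, 6916 and 7404 in OHT, with a difference of 0.73 (SE 0.31; limma adjusted p = 0.401). In ppm Blvra and Blvrb stayed free of overlap, beside 5.44% of all genes, and Hmox2 did not. The differences of Blvra and Hmox2 were 0.54 and 0.31 against the total without mitochondrially encoded genes. On that scale 1 of the 54 other iron genes was higher without overlap, beside 439 of all 14403 genes, so the separation did not hold for every heme degradation gene.

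Of the import genes beside the members, 2 of 10 tested were lower in OHT at an unadjusted limma p of 0.05, beside 6.30% of all genes. The endothelial and the pericyte and fibroblast marker sums were lower in OHT as well, as given above. In sham replicates 1 to 3 the rod sums were 2400, 23022 and 18457 ppm and the astrocyte sums 403, 2474 and 2401. Both were lowest in sham replicate 1, as were Slc22a17, Cybrd1 and Epas1, while Scara5 was lowest in sham replicate 2. The part of the endothelial, pericyte and fibroblast, and astrocyte lists in these import genes and in Epas1 was not tested. Scara5, a receptor for ferritin, had 70.2, 39.7 and 144 normalised reads in sham and 2.76, 0 and 3.21 in OHT, a log2 difference of -4.90 (SE 1.43; limma adjusted p = 0.332, and 0.00541 before adjustment). Slc22a17, a lipocalin receptor, had 1835, 5381 and 4693 in sham and 1425, 1741 and 567 in OHT (-1.68, SE 0.53; limma adjusted p = 0.332). Over the alternatives to the limma fit, the difference nearest to 0 was -0.74 for Slc22a17 and -2.84 for Scara5. Cybrd1, a ferric reductase, was at 1.03, 165 and 209 in sham and 2.76, 0.823 and 0.801 in OHT. Its groups overlapped through sham replicate 1, and its limma difference of -4.16 (SE 1.94, adjusted p = 0.435) was 0.12 with the rod list as a covariate.

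In iron sensing and ferritin turnover, 1 of 8 genes tested was lower at an unadjusted limma p of 0.05, beside 6.30% of all genes. This was Epas1, the hypoxia-inducible factor HIF-2α, with 1686, 5403 and 4184 normalised reads in sham and 819, 1012 and 953 in OHT, a log2 difference of -1.86 (SE 0.46; limma adjusted p = 0.332, and 0.00188 before adjustment). Its difference was -1.09 with the microglia and macrophage covariate and -0.89 with the rod covariate. Nfe2l2, which encodes NRF2, a known activator of ferritin and Hmox1 transcription, had 9475, 7069 and 10062 in sham and 15687, 10999 and 15228 in OHT (0.65, SE 0.32; limma adjusted p = 0.450). Fbxl5, which marks IRP2 for degradation, was at -0.40 (SE 0.39; limma adjusted p = 0.677), and its groups overlapped.

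Ferroxidases and systemic regulators held 4 tested genes, none at an unadjusted p of 0.05. The ferroxidase Heph had 301, 592 and 313 normalised reads in sham and 35.9, 213 and 301 in OHT, a gap of less than 1 normalised read. Cp, ceruloplasmin, overlapped (log2 difference -0.90, SE 0.48), and Hfe, a partner of the transferrin receptor, was higher without overlap (0.55, SE 0.31). The remaining roles held no gene at an unadjusted p of 0.05. Among 8 tested genes of heme uptake and transport, the smallest p values were those of Slc48a1, which moves heme out of lysosomes (-1.08, SE 0.52), Flvcr1 (0.76, SE 0.68) and Slc46a1 (-0.29, SE 0.43).

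In heme synthesis (9 tested) the genes of smallest p were Urod, Alas1, the first enzyme of the route, and Alad, with log2 differences of 0.47, 0.44 and 0.43, and Alad alone was free of overlap. In mitochondrial iron and iron-sulfur clusters (12 tested) Slc25a37, a mitochondrial iron importer (-0.79), and Glrx5 (-0.95) were among those of smallest p. Glrx5, a glutaredoxin of cluster assembly, had 2301, 2028 and 2310 normalised reads in sham and 3613, 2451 and 168 in OHT, so its lower OHT mean rested on OHT replicate 3, without which the difference was 0.43.

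**Figure D5:**
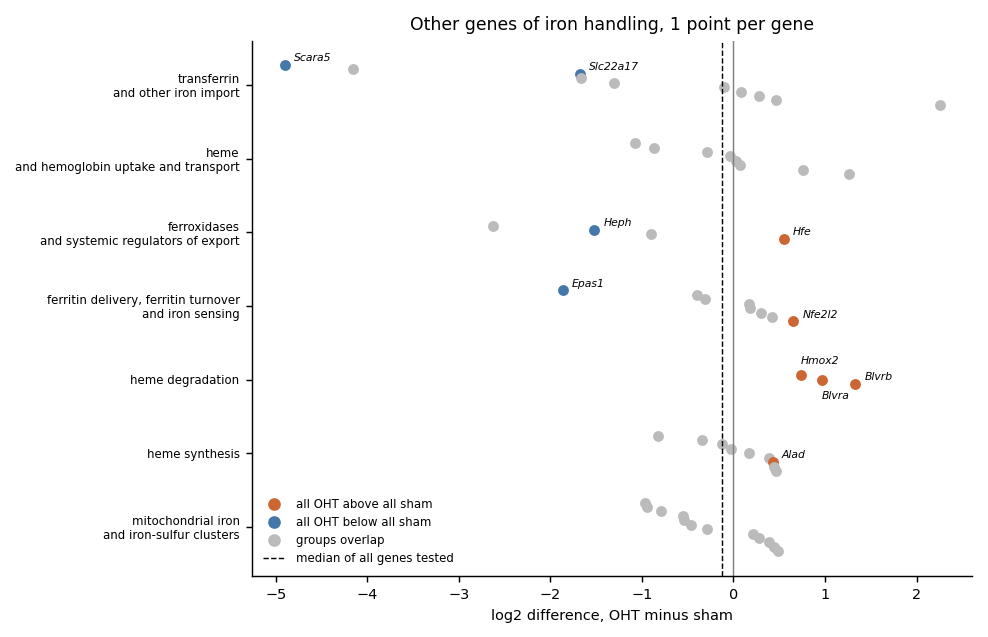
Log2 difference, OHT minus sham (x axis), of the 54 other iron genes tested, 1 point per gene, by role (y axis). The 3 heme degradation genes lie to the right at 0.73 to 1.33, the points of the other roles lie on both sides of 0, and the dashed line marks the median of all genes at -0.12.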

How the data were processed

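RNA was measured in 9 libraries made, per the labels' protocols, from amplified low-input cDNA and read as 150 bp pairs. Per the submitters' processing notes, bcl2fastq 2.20, Trim Galore 0.6.6, FastQC 0.11.9, STAR 2.7.1a and the build mm39 were used. Not given in the sources used here: counter, annotation, strand setting and normalization. The deposited signal is, per the deposited values, a read count per gene divided by 1 factor per library and not by gene length. Division by each column's smallest step gave whole reads within 0.05 reads, though the step of culture replicate 3 is too close to 1 to check this there. The sorted cells and the cultures are in separate tables, so no test crosses them. All columns belonged to a sample, and replicates differed by more than sampling noise (chi-square per gene at least 46.3).

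OHT and sham were compared with limma 3.58.1 (lmFit, eBayes with trend, R 4.3.3) on log2(value + 1), which understates changes of low genes, for the 14403 genes averaging 10 or more. P-values were adjusted by Benjamini-Hochberg over all of them. edgeR 4.0.16 and DESeq2 1.42.0 were run on recovered reads. The script was tested on simulated data. The members, lists and alternatives were chosen with earlier results of these data known. Beside the members, the 3 genes of smallest p in each role were named, since none passed the adjusted threshold (1 of them is not reported here), and for each member the 3 most similar genes by Pearson's r, without predicted genes. Lengths and hairpins came from GENCODE M21 on GRCm38, which differs from the submitters' build, so coordinates belong to GRCm38 only. Overlapping genes in that annotation (Gm10252 and Gm22133 with Ftl1, Gm5475 with Slc11a2) have no row in the tables. The 95% intervals come from the limma fit and carry the spread between libraries, while read depth speaks to counting error only, since the reads carry no molecular identifiers. Shares, exact tests and plots used scipy 1.17.1, pandas 2.3.3 and matplotlib 3.10.9 in Python 3.11.15.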

Additional observations from a re-analysis of the deposited data

How the results depend on the processing

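Alternatives to the limma fit covered the pseudocount, the filter, 4 scalings, the trend, array weights, 2 covariates, the replicate block, edgeR, DESeq2 and leaving out each library. The GC and length correction, and a culture total without mitochondrially encoded genes, were added after seeing the data. Over these 21 settings the directions of Fth1, Ftl1, Tfrc, Slc40a1, Hmox1 and Ireb2 held. Slc11a1 turned to -0.11 after quantile normalization and -0.17 against the total without mitochondrially encoded genes, Slc11a2 to -0.053 against that total, and Aco1 to 0.0078 and Slc46a1 to 0.11 after the GC and length correction. With the microglia and macrophage covariate Fbxl5 was 0.34, Heph 0.00121 and Flvcr1 -0.12. With the rod covariate Fbxl5 was 0.31, Cp 0.43 and Cybrd1 0.12. The microglia and macrophage covariate put Fth1 at 0.43, Ftl1 at 1.17, Tfrc at -0.29, Slc11a1 at 0.16 and Slc11a2 at 0.70. With it Slc40a1 was 0.50, Hmox1 0.94, Aco1 -0.56 and Ireb2 0.06. The rod covariate put Fth1 at 0.74, Ftl1 at 1.48, Tfrc at -1.01, Slc11a1 at 0.15 and Slc11a2 at 0.81. With the rod list Slc40a1 was 0.66, Hmox1 0.96, Aco1 -0.88 and Ireb2 0.24. When a library was left out, Slc46a1 ranged from -0.65 to 0.080 and Glrx5 from -1.78 to 0.43, both highest without OHT replicate 3. Their cause was not tested.

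Members at an unadjusted p of 0.05 numbered 1 after quantile normalization, 1 without the trend, 0 with the microglia and macrophage covariate, 0 with the rod covariate, and 0 to 3 when a library was left out (0 without sham replicate 2, 1 without sham replicate 1, 1 without OHT replicate 1). The other iron genes numbered 3 and 2 with those covariates, and 4 to 10 when a library was left out (10 without sham replicate 1). DESeq2 called 1 member, 3 other iron genes and 250 genes in all at an adjusted p of 0.05. Leaving out a library gave 0 to 17 genes in all (12 without sham replicate 1, 17 without sham replicate 3). At an unadjusted p of 0.05, 1576 of all 14403 genes passed after quantile normalization and 1362 without the trend. With the microglia and rod covariates 637 and 475 genes passed. When a library was left out, 544 to 2508 passed (544 without sham replicate 2, 1055 without sham replicate 3, 1565 without sham replicate 1, 1224 without OHT replicate 1).

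Groups share replicate numbers. Deviations of same-numbered libraries had a correlation of 0.08, -0.02 and -0.05. Sham replicate 1 correlated best with its own number, and sham replicates 2 and 3 with another. Deviations from the mean of 3 libraries are tied to each other, so these values do not settle whether the numbers pair the libraries. With the replicate block 2 genes in all, no member and no other iron gene passed an adjusted p of 0.05. At an unadjusted p of 0.05 there were 4 of 9 members, beside 1809 of all 14403 genes. For Ftl1 the SE was 0.33 and the limma adjusted p 0.121 with the block, against 0.50 and 0.339 without it. With 3 pools a group and a spread this wide, the intervals of most members take in 0, and values near that size cannot be placed on either side of it. Slc11a1 rests on at most 69 reads in a culture.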

Other observations

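Other iron genes were read in the cultures too, in ppm and with no test. Of 53 in both tables, 12 were higher in every culture than in all 6 sorted libraries and 14 were lower, beside 33.4% and 18.2% of genes. The examples here were chosen after their values were seen. Trf, transferrin, was at 2115, 2168 and 2303 ppm in sham, 1836, 2128 and 4273 in OHT and 21.4, 30.7 and 42.3 in the cultures. It was thus lower in the cultures than in all 6 sorted libraries, where its receptor Tfrc was higher in the cultures. Sham and OHT overlapped in ppm for both genes. The Steap family genes Steap1, Steap2 and Steap3 were higher in every culture than in all 6 sorted libraries. Steap1 was at 111, 95.8 and 118 ppm against at most 1.80 in a sorted library. Steap4, of the same family, was at 0.151, 0.159 and 0.547 ppm in the cultures, which overlapped sham and lay below OHT. The ferric reductase Cybrd1, at 2.74 to 2.98 ppm in the cultures, overlapped sham and lay above OHT. Hfe was at 2.56 to 3.86 ppm in the cultures and 87.4 to 163 in the sorted libraries. Blvrb, which was higher in OHT than in sham, was lowest in the cultures at 12.5 to 14.4 ppm.

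Iscu, the scaffold of iron-sulfur cluster assembly, was at 180, 150 and 138 ppm in sham, 184 and 187 in OHT replicates 1 and 2, and 8.70 in OHT replicate 3. Glrx5, of the same assembly line, was low in that library as well, as the report gives. The cultures held Iscu at 2.01 to 3.39 ppm. Among the 6 sorted libraries, Fth1 and Ftl1 were also furthest apart in OHT replicate 3, where Ftl1 was the 5th gene by reads and Fth1 the 12th.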
